A study of Homo sapiens with 8 samples.

Results

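The MHC class I presentation genes examined here were 9 genes, listed by name but with earlier results of these data known. Shares of all genes set beside them are therefore descriptive. The list held the heavy chains HLA-B, HLA-C, HLA-E and HLA-F and the light chain B2M. It also held both subunits of the peptide transporter (TAP1 and TAP2), tapasin (TAPBP) and the trimming peptidase ERAP1. All 9 had values, among 12939 genes measured. MDA-MB-231 is a human triple-negative breast cancer cell line, and the cells carried GFP under an Oct4 promoter, so that those with high GFP could be sorted as cancer stem cells (CSCs). The libraries came from 3 groups of these CSCs, all with a stable RFP-marked shRNA construct: scramble, a non-targeting shRNA (3 libraries), CDH2 shRNA against N-cadherin (3 libraries) and Cx43 shRNA against the gap junction protein connexin 43 (2 libraries). The CDH2 shRNA line was a single selected clone, so clone and target cannot be told apart in it. The paper describes a stable transfected line for each group, so line and shRNA cannot be told apart in the others either. CDH2 and GJA1, the gene of Cx43, were not analysed here, and no check of knockdown was made.

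Class I molecules carry peptides from inside the cell to its surface, where cytotoxic T cells and natural killer cells read them. A heavy chain pairs with beta-2 microglobulin in the endoplasmic reticulum (ER). TAP1 and TAP2 pump peptides made by the proteasome into the ER, tapasin holds the empty class I molecule next to the transporter, and ERAP1 trims peptides to the length the groove takes. HLA-B and HLA-C are classical, highly polymorphic heavy chains, HLA-E presents leader peptides of other class I chains to the NKG2A receptor of natural killer cells, and HLA-F is a less studied non-classical chain. Interferon-gamma induces most of this pathway, through IRF1 and the transactivator NLRC5, and tumour cells often express it at a low level.

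Values were log2(CPM + 1), with CPM the counts scaled to the library total, as the authors deposited them after removal of a sequencing-run effect. The summed CPM of the genes measured was between 684411 and 727083 in the 8 libraries and the median gene lay between 4.69 and 4.72, but the number of reads behind each library is unknown. Markers of the cell line were present in all libraries: VIM, CD44, KRT7, KRT8, KRT18, EPCAM and ERBB2 had values, with VIM at a mean of 9.72 in scramble, while CDH1, ESR1 and PGR were not among the genes measured. Differences were fitted with limma over all genes, with the replicate number as a block, and p-values were adjusted by the Benjamini-Hochberg method over all 12939 genes. A gene is said to have fallen or risen where its adjusted p was under 0.05, and to be past threshold where its difference also reached the fold limit, 0.73 on the log2 scale in CDH2 shRNA against scramble and a fold of 1.5 in the other comparisons. Nothing states that the replicates came from separate cultures, so p-values measure only the spread between these libraries. The fit counts 3 residual degrees of freedom although the residuals vary in 2 directions, so its p-values are too small. This limit holds for every gene said below to have fallen or risen.

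In CDH2 shRNA CSCs all 4 heavy chains and B2M fell, by 1.36-fold to 1.80-fold, whereas no member of the transporter, tapasin and trimming group passed the test. With the spread taken over 2 directions only HLA-B and HLA-C passed, and with the CDH2 shRNA and scramble libraries alone none of the 5 did. Cx43 shRNA CSCs had lower values of the same 5 genes, by 1.20-fold to 1.44-fold, but none passed the test. The 5 members that fell in CDH2 shRNA stand beside a background of 6.98% of all genes that fell in that comparison, and the 1 member past threshold (HLA-B) beside 1.2% of all genes lower and past threshold. The median log2 fold change of the 9 members was -0.45 in CDH2 shRNA against scramble, where the median of all genes was 0.007. In Cx43 shRNA against scramble it was -0.26, with 0.04 for all genes. Both comparisons use the same scramble libraries. In such bulk libraries, fewer cells that express a gene and less RNA per cell cannot be told apart.

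Among the heavy chains, HLA-B had the largest difference. HLA-B (chromosome 6, 31353872 to 31367067, minus strand, GENCODE annotation of hg38) was at 9.56, 9.66 and 9.47 log2(CPM + 1) in the scramble libraries, at 8.71, 8.64 and 8.81 in CDH2 shRNA, and at 9.05 and 9.03 in Cx43 shRNA. Every CDH2 shRNA library lay below both Cx43 shRNA libraries, which in turn lay below every scramble library. The fitted log2 difference of CDH2 shRNA from scramble was -0.85 ± 0.09 (SE), or 1.80-fold lower, with an adjusted p of 0.0184. Within replicate numbers 1, 2 and 3 that difference was -0.86, -1.02 and -0.66.

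HLA-C (chromosome 6, 31268749 to 31272130, minus strand), the other classical heavy chain of the list, was at 8.36, 8.40 and 8.33 in scramble, 7.65, 7.63 and 7.69 in CDH2 shRNA, and 8.04 and 8.02 in Cx43 shRNA. Its groups were apart in the same order. It fell 1.63-fold in CDH2 shRNA (log2 difference -0.71 ± 0.07 SE, limma adjusted p = 0.0167), just short of the fold limit.

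The non-classical HLA-E (chromosome 6, 30489509 to 30494194, plus strand) was at 7.55, 7.60 and 7.51 in scramble, 7.10, 7.07 and 7.15 in CDH2 shRNA, and 7.22 and 7.21 in Cx43 shRNA. It fell 1.36-fold in CDH2 shRNA (log2 difference -0.45 ± 0.08 SE, limma adjusted p = 0.0258), and its knockdown groups lay nearest to each other among the heavy chains. HLA-F (chromosome 6, 29722775 to 29738528, plus strand) was much less abundant, at 3.84, 3.84 and 3.83 in scramble, 3.39, 3.27 and 3.34 in CDH2 shRNA, and 3.51 and 3.63 in Cx43 shRNA. It fell 1.42-fold in CDH2 shRNA (log2 difference -0.50 ± 0.08 SE, limma adjusted p = 0.0246), and at its low level the scale of log2(CPM + 1) makes a change look smaller than it is.

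The light chain B2M (chromosome 15, 44711358 to 44718851, plus strand), which every class I heavy chain needs, was at 9.30, 9.26 and 9.33 in scramble, 8.73, 8.69 and 8.66 in CDH2 shRNA, and 8.99 and 9.07 in Cx43 shRNA. It lies on another chromosome than the heavy chains and had the same order of groups, with no overlap. It fell 1.52-fold in CDH2 shRNA (log2 difference -0.60 ± 0.08 SE, limma adjusted p = 0.02), and the differences within the replicate numbers, -0.57, -0.56 and -0.68, were close to each other.

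**Figure D1:**
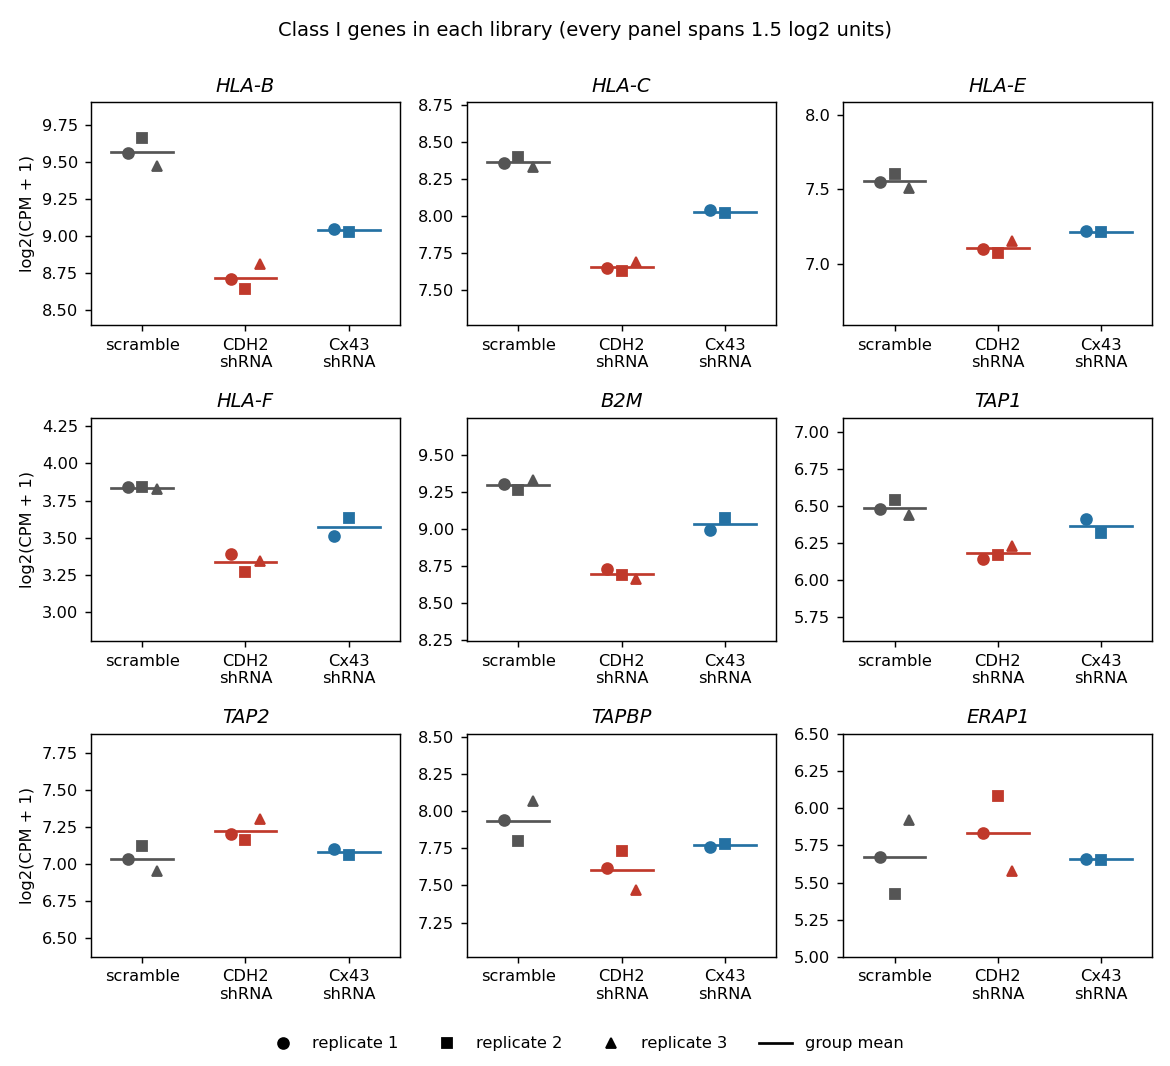
Each panel plots log2(CPM + 1) of a class I gene in the 8 libraries by group, with 1 point per library, shapes for replicate numbers and a line at the group mean, and every panel spans the same range. HLA-B, HLA-C, HLA-E, HLA-F and B2M are highest in scramble, intermediate in Cx43 shRNA and lowest in CDH2 shRNA, with no overlap, while the groups overlap for ERAP1.

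The calls for these 5 genes depended on the libraries that set the spread. With the CDH2 shRNA and scramble libraries alone in the fit, or without either Cx43 shRNA library, their adjusted p-values were 0.0561 to 0.0636 and no gene of all 12939 passed, and they were 0.105 to 0.231 without scramble replicate 1, 0.0954 to 0.137 without CDH2 shRNA replicate 1 and 0.0751 to 0.0851 without CDH2 shRNA replicate 2. The residuals of the deposited values vary in 2 directions where the model counts 3, and with the spread taken over 2, HLA-B and HLA-C kept an adjusted p under 0.05 and HLA-E, HLA-F and B2M did not (range over the 5 genes 0.03 to 0.0991).

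None of the 4 members that transport, load or trim peptides passed the test, and whether their differences were smaller than those of the heavy chains was not tested. TAP1 (chromosome 6, 32845209 to 32853816, minus strand) was at 6.48, 6.54 and 6.44 in scramble, 6.14, 6.17 and 6.23 in CDH2 shRNA, and 6.41 and 6.32 in Cx43 shRNA. The groups did not overlap and had the order of the heavy chains, but the log2 difference of CDH2 shRNA from scramble, -0.30 ± 0.08 (SE), had a limma adjusted p of 0.0575. TAPBP (chromosome 6, 33299694 to 33314284, minus strand) was at 7.94, 7.80 and 8.07 in scramble, 7.62, 7.73 and 7.47 in CDH2 shRNA, and 7.76 and 7.78 in Cx43 shRNA. Its groups were also apart, though CDH2 shRNA replicate 2 lay only 0.08 below scramble replicate 2, and its difference of -0.34 ± 0.11 (SE) had a limma adjusted p of 0.094.

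TAP2 (chromosome 6, 32821833 to 32838739, minus strand), the partner of TAP1 in the transporter, went the other way. It was at 7.03, 7.12 and 6.95 in scramble, 7.20, 7.16 and 7.30 in CDH2 shRNA, and 7.10 and 7.06 in Cx43 shRNA. All CDH2 shRNA libraries lay above the rest, with a log2 difference from scramble of 0.19 ± 0.09 (SE, limma adjusted p = 0.178), and the Cx43 shRNA libraries lay within the scramble range. Of the 75-base windows along the TAP2 transcript, 35.0% are also found in other annotated transcripts, mainly a readthrough transcript of the locus, so its value is uncertain where the expectation-maximization step of the authors' quantification split reads between them. The same share was 0 for HLA-B, HLA-F, B2M and ERAP1, 0.23% for TAP1, 1.72% for TAPBP, 1.98% for HLA-C and 2.3% for HLA-E.

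ERAP1 (chromosome 5, 96760810 to 96808100, minus strand) spread widely within groups, at 5.67, 5.42 and 5.92 in scramble, 5.83, 6.08 and 5.58 in CDH2 shRNA, and 5.66 and 5.65 in Cx43 shRNA. The groups overlapped in every comparison, and the difference of CDH2 shRNA from scramble was 0.16, 0.66 and -0.35 within the replicate numbers. No difference was detectable for ERAP1 (log2 difference 0.16 ± 0.18 SE, limma adjusted p = 0.558), although without replicate 3 of scramble or CDH2 shRNA it was 0.41 (adjusted p = 0.0259), in a fit where 41% of all genes were under 0.05.

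Across the list, 7 of the 9 members were lower in all CDH2 shRNA libraries than in any scramble library, namely the 4 heavy chains, B2M, TAP1 and TAPBP, where 24.8% of all genes showed such a gap downward. TAP2 was the 1 member apart in the upward direction (27.1% of all genes). Without the replicate block, 43.3% of all genes and 8 of the 9 members had an adjusted p under 0.05. The members ran from 0.000187 for HLA-C to 0.0438 for TAP2, with TAP1 at 0.00398 and TAPBP at 0.0219, and ERAP1 did not pass. That fit counts 5 residual degrees of freedom, although the run effect was already removed and the residuals vary in 2 directions. Its p-values are therefore too small, more so than those of the fit with the block.

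In Cx43 shRNA against scramble the same 7 members had no overlap downward (21.4% of all genes), and TAP2 and ERAP1 overlapped. The log2 differences were -0.53 ± 0.11 (SE) for HLA-B, with a limma adjusted p of 0.0855, and -0.33 ± 0.09 for HLA-C, with 0.116. HLA-E differed by -0.34 ± 0.09, HLA-F by -0.27 ± 0.09 and B2M by -0.26 ± 0.09, with limma adjusted p-values of 0.12, 0.184 and 0.182. TAP1 (-0.12), TAPBP (-0.17), TAP2 (0.05) and ERAP1 (-0.01) differed by less than 1.5 times their standard errors. No member passed the test, beside 0.788% of all genes that fell in this comparison, and 5 of 9 had an unadjusted p under 0.05, beside 21.6% of all genes. Without the replicate block, all 4 heavy chains and B2M had adjusted p-values between 0.00417 and 0.016, with 24.3% of all genes under 0.05. As above, the p-values of that fit are too small. HLA-B, HLA-C and HLA-E were under 0.05 with only the Cx43 shRNA and scramble libraries in the fit (21.7% of all genes), and without replicate 3 of scramble or CDH2 shRNA (16.5% of all genes).

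**Figure D2:**
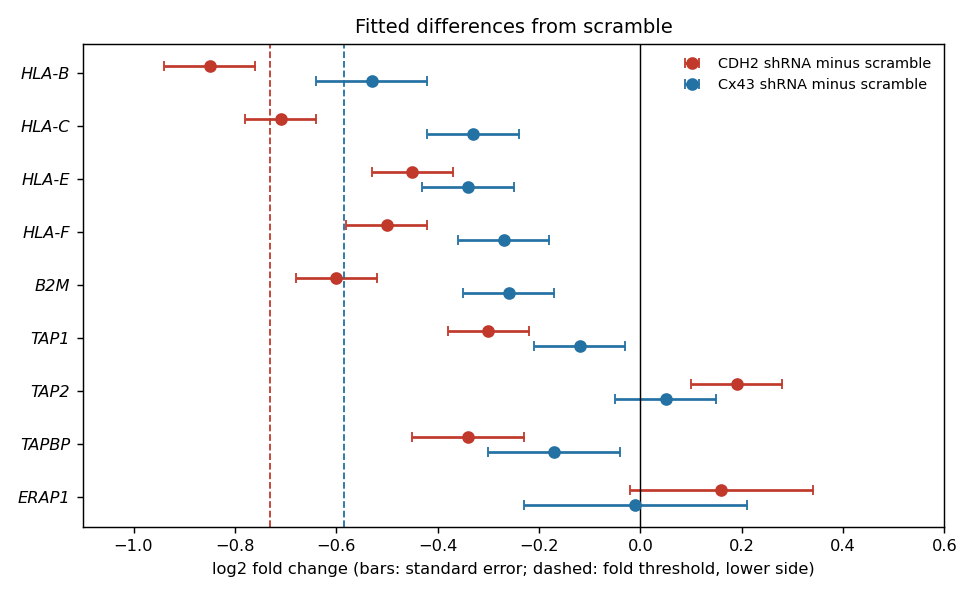
Fitted log2 fold change of each class I gene in CDH2 shRNA (red) and Cx43 shRNA (blue) against scramble, with bars for the standard error and dashed lines at the fold limit of each comparison on the lower side. HLA-B in CDH2 shRNA, at -0.85, is the 1 value beyond its line, and HLA-C follows at -0.71.

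Between the knockdowns, the heavy chains, B2M, TAP1 and TAPBP were lower in every CDH2 shRNA library than in both Cx43 shRNA libraries (29.1% of all genes), and TAP2 was higher (21.8% of all genes). The log2 differences of CDH2 shRNA from Cx43 shRNA were -0.37 ± 0.09 (SE) for HLA-C, -0.34 ± 0.09 for B2M, -0.32 ± 0.11 for HLA-B, -0.23 ± 0.09 for HLA-F and -0.11 ± 0.09 for HLA-E. None of the 9 members and none of the 12939 genes passed limma's adjusted p, and 4 members were under 0.05 before adjustment, beside 20% of all genes. Without the replicate block, where p-values are too small, HLA-B, HLA-C, HLA-F and B2M passed, beside 21.5% of all genes. Their adjusted p-values ran from 0.00432 for HLA-C to 0.0299 for HLA-F. Without replicate 3 of scramble or CDH2 shRNA, HLA-B (0.0462) and HLA-C (0.0347) had an adjusted p under 0.05, beside 16.5% of all genes.

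Divided by transcript length, so that genes can be compared, B2M was the most abundant member in each group, followed by HLA-B and HLA-C. In scramble, the level of B2M was 665 CPM per kb on average (647 to 683 over 3 libraries), that of HLA-B 493 (461 to 525) and that of HLA-C 213 (208 to 218). HLA-E at 73.4 (71.2 to 75.5) and TAPBP at 71.0 (64.4 to 77.8) overlapped, and TAP1 at 33.0 (31.9 to 34.2) lay above TAP2 at 23.0 (21.7 to 24.4). ERAP1 at 10.4 (8.65 to 12.3) and HLA-F at 8.99 (8.94 to 9.02) were the least abundant and overlapped.

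The same scale gave HLA-B 274 CPM per kb in CDH2 shRNA (258 to 292) and 341 in Cx43 shRNA (339 to 344), and gave B2M 438 (427 to 450) and 555 (539 to 571). TAP1 and TAP2, which act as a pair, were at 26.7 (25.9 to 27.6) and 26.3 (25.1 to 27.8) in CDH2 shRNA, so that the gap between them in scramble was not seen there. Whether that gap differed between groups was not tested, and neither gene passed the test. The level of TAP2 is also uncertain, since 35.0% of its windows are shared with other transcripts. B2M per summed CPM per kb of the 4 heavy chains was 0.846, 0.781 and 0.912 in scramble, 0.977, 0.986 and 0.877 in CDH2 shRNA, and 0.931 and 0.998 in Cx43 shRNA. That ratio was below 1 in all 8 libraries and overlapped between scramble and CDH2 shRNA.

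The promoters of the members that fell share letters known for control of class I genes, and so do those of members that did not. RefSeq start sites on GRCh38.p14 gave windows of 300 bases for 8 of the 9 members (the first listed site where a gene had more than 1), and HLA-E had no entry. Searched on both strands were enhancer A (GGGNATTCNCC, where NF-kappaB factors bind), the interferon-stimulated response element with the 2-base spacing of GAAANNGAAA or in the shorter form GAANNGAAA, the CRE-like TGACG of the SXY module and the CCAAT of its Y box. The windows of HLA-B and HLA-C are shown because these genes had the largest differences, that of B2M as the light chain that fell with them, and that of TAP2 as a member that did not fall. Capitals mark the motifs, and each window runs 5′ to 3′ in the direction of its gene.
HLA-B, chr6:31357130-31357429, minus strand: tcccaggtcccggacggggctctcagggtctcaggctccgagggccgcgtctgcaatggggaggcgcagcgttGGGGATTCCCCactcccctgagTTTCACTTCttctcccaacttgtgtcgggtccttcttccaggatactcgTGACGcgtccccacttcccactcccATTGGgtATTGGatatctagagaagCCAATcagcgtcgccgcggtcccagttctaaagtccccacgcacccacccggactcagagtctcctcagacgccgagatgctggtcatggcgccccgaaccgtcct
HLA-C, chr6:31272043-31272342, minus strand: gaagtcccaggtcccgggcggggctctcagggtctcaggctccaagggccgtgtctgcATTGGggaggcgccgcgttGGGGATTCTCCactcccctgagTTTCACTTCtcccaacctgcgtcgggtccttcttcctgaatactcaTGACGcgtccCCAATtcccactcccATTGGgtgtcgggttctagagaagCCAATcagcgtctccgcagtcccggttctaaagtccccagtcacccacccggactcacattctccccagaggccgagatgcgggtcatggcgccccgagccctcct
B2M, chr15:44711267-44711566, plus strand: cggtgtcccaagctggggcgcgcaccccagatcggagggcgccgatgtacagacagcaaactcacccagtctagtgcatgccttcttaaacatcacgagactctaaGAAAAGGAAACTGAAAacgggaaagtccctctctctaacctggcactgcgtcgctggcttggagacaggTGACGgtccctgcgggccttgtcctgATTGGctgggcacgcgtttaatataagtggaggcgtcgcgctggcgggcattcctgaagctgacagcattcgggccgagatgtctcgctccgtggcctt
TAP2, chr6:32838690-32838989, minus strand: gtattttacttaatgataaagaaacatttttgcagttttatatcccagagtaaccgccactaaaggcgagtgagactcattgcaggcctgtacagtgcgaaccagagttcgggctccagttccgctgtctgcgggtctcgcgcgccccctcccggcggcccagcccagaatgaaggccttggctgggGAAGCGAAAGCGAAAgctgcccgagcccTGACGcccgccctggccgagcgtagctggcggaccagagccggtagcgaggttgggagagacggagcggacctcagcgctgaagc

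Positions have no base 0, and the start base is the first positive one. Enhancer A stood at -177 to -167 in HLA-B and at -173 to -163 in HLA-C, and in none of the other windows of members. Of 35116 RefSeq promoter windows, 66 (0.188%) hold those letters. Only this form was searched, so other forms of NF-kappaB site in the windows were not looked for. HLA-B and HLA-C also held the shorter interferon element at -155 to -147 and -151 to -143, present in 7.66% of all windows, and TGACG at -106 to -102 and -105 to -101, present in 24.6%. TGACG also stood at -75 to -71 in B2M and at -35 to -31 in TAP2, which did not fall. Of the windows of measured genes, 32.4% hold it. B2M held the longer interferon element at -144 to -135 and, overlapping it, at -138 to -129, and 3.57% of all windows hold it. HLA-F, TAP1, TAP2, TAPBP and ERAP1 held the longer element as well, which at -58 to -49 in TAP2 overlapped a shorter one. The interferon letters were present both in members that fell and in TAP2 and ERAP1, which did not. CCAAT, the most common motif searched (34.6% of all windows), stood in the windows of HLA-B, HLA-C, HLA-F, B2M, TAP1 and ERAP1.

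**Figure D3:**
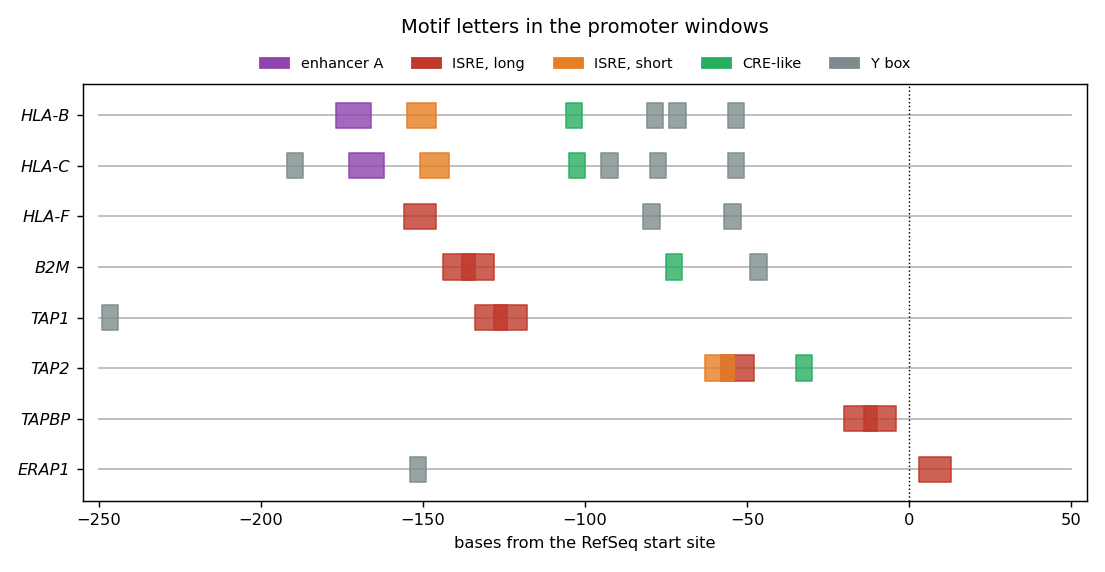
Positions of the motif letters in the promoter windows of 8 class I genes, with bases from the RefSeq start site on the x axis and a colour for each motif, overlapping matches drawn over each other. HLA-B and HLA-C share an enhancer A at -177 and -173 followed by a short interferon element, and interferon letters (ISRE) are seen in all 8 windows.

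Some of the other class I and class I-like chains also fell. Of 19 listed, 13 had values, 4 fell in CDH2 shRNA (6.98% of all genes fell) and none rose (7.29% rose). HLA-G, the non-classical chain of the placenta, fell from a mean of 2.19 in scramble to 1.02 in CDH2 shRNA (log2 difference -1.17, adjusted p = 0.0165) and was past threshold, at a low level in every library. The pseudogene HLA-H (-0.59, adjusted p = 0.0256) and RAET1G, a stress ligand of the NKG2D receptor (-0.80, adjusted p = 0.0209), were among the 4. RAET1G had the largest difference of the list in Cx43 shRNA, -0.84 (adjusted p = 0.051). The median of the 13 was -0.22 in both knockdowns against scramble.

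All 5 genes of the immunoproteasome and of its activator fell in CDH2 shRNA, beside 6.98% of all genes. The immunoproteasome is the interferon-inducible proteasome that cuts peptides for class I. The catalytic subunit PSMB9 was at 5.03, 5.16 and 4.92 in scramble, 4.04, 4.10 and 4.25 in CDH2 shRNA, and 4.46 and 4.26 in Cx43 shRNA. Its log2 difference of -0.91 ± 0.12 (SE, limma adjusted p = 0.02) exceeded that of any class I member in CDH2 shRNA and was -0.68 in Cx43 shRNA (adjusted p = 0.0802). PSMB10, at 4.92, 4.93 and 4.91 in scramble and 4.15, 4.12 and 4.15 in CDH2 shRNA, fell by 0.78 on the log2 scale (adjusted p = 0.016) and was also past threshold. PSMB8 (-0.45, adjusted p = 0.0324) and the activator subunits PSME1 (-0.47, 0.0225) and PSME2 (-0.46, 0.0395) fell below the fold limit. In Cx43 shRNA these 3 were at -0.12, 0.10 and -0.20 (adjusted p = 0.531, 0.517 and 0.382), and no gene of the list passed. The calls of the list had the same dependence as those of the members: with the CDH2 shRNA and scramble libraries alone the adjusted p-values were 0.0561 to 0.0806, and with the spread over 2 directions 2 of the 5 passed. The RefSeq start sites of TAP1 and PSMB9 lie 488 bases apart on opposite strands, and both genes were lower in every CDH2 shRNA library than in any scramble library, by 0.30 and 0.91 on the log2 scale.

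None of 15 chaperones and peptidases of class I loading passed the test in either knockdown, with medians of 0.07 and 0.00 on the log2 scale. The largest differences were LNPEP, a peptidase of endosomal cross-presentation, at 0.42 in CDH2 shRNA (adjusted p = 0.145), and the ER chaperone HSPA5 at -0.55 in Cx43 shRNA (adjusted p = 0.125). Among 9 genes of class I turnover in the ER none passed either. HM13, the signal peptide peptidase that releases the leader peptides HLA-E presents, was at -0.28 in CDH2 shRNA (adjusted p = 0.13), and the ubiquitin ligase TMEM129 at 0.47 in Cx43 shRNA (adjusted p = 0.101).

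**Figure D4:**
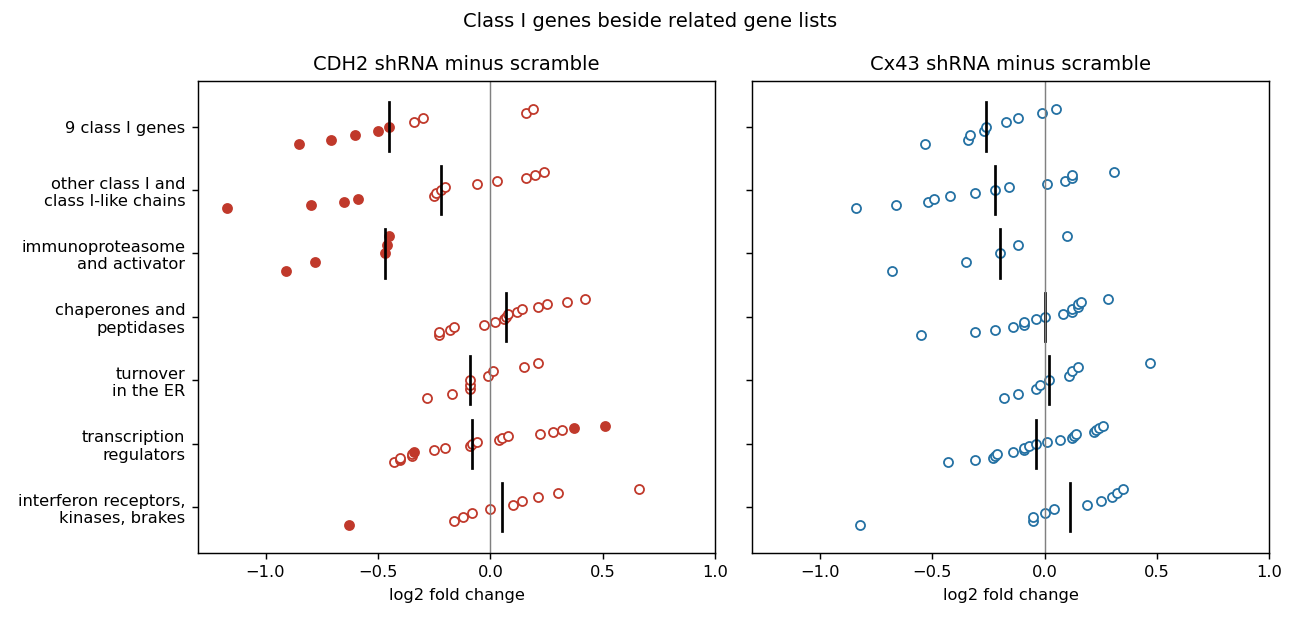
Log2 fold change against scramble of the 9 class I genes and of 6 related lists, in CDH2 shRNA (left) and Cx43 shRNA (right), with 1 point per gene, filled where the adjusted p was under 0.05, and a black line at the list median. Filled points lie on the lower side for the 9 genes (median -0.45), the other class I chains and the immunoproteasome (median -0.47) in CDH2 shRNA, and no point is filled in Cx43 shRNA.

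Of 19 regulators of class I transcription, 2 fell in CDH2 shRNA, beside 6.98% of all genes, and 2 rose, beside 7.29%. Both counts were near those shares. The interferon regulatory factor IRF7 (-0.40, adjusted p = 0.0359) and RFX5, which binds the X box of class I and class II promoters (-0.34, adjusted p = 0.0442), fell, while NFYA, a subunit of the factor that binds CCAAT (0.51, adjusted p = 0.0215), and the NF-kappaB subunit NFKB1 (0.37, adjusted p = 0.041) rose. In Cx43 shRNA no regulator passed, and the largest difference was IRF1, the interferon regulatory factor, at -0.43 (adjusted p = 0.155). IRF1 had the same size of difference in CDH2 shRNA, -0.43, with an adjusted p of 0.0594. The transactivator NLRC5 was at 4.91, 4.90 and 4.90 in scramble, 4.75, 4.65 and 4.71 in CDH2 shRNA, and 4.64 and 4.74 in Cx43 shRNA. Its knockdown libraries were all lower than scramble but overlapped each other, and its difference in CDH2 shRNA, -0.20 ± 0.08 (SE), had a limma adjusted p of 0.127. NLRC5 was named after its values were seen.

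Of 10 interferon receptors, kinases and brakes, 1 fell in CDH2 shRNA, beside 6.98% of all genes. That gene was SOCS1, an interferon-induced inhibitor of JAK kinases (-0.63, adjusted p = 0.0418). It was at -0.82 in Cx43 shRNA (adjusted p = 0.0831). JAK2 was at 0.66 in CDH2 shRNA (adjusted p = 0.0644). Class II presentation, which these epithelial cells do not carry out without induction, was represented by 2 of 12 listed genes, CTSS and IFI30, and neither passed (-0.22 and -0.41 in CDH2 shRNA, -0.41 and -0.36 in Cx43 shRNA, adjusted p between 0.135 and 0.504), while CIITA, CD74 and the class II chains were not among the genes measured.

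Class I genes are expressed by nearly all nucleated cells, so markers of other cells were measured beside them. Of 11 leukocyte markers 2 had values (ITGAM and CD68), PTPRC and the lineage markers were not among the genes measured, and the summed CPM was 22.9 to 23.6 in scramble, 23.8 to 26.1 in CDH2 shRNA and 16.8 to 19.0 in Cx43 shRNA. Neither passed in CDH2 shRNA, with ITGAM at -0.09 (limma adjusted p = 0.672) and CD68 at 0.16 (limma adjusted p = 0.375). Of 7 stromal markers PDGFRB and COL1A1 had values, with a summed CPM of 53.7 to 66.3, 40.4 to 52.6 and 29.6 to 40.2 in the same groups. PDGFRB fell in CDH2 shRNA (-0.63, adjusted p = 0.0442), and COL1A1 had the largest difference in Cx43 shRNA (-0.92, adjusted p = 0.173). The 7 measured markers of the cell line summed to 2090 to 2240, 1920 to 2020 and 2020 to 2110, with EPCAM lower in CDH2 shRNA (-0.37, adjusted p = 0.0349), KRT7 at -0.50 (adjusted p = 0.0565) and KRT8 at -0.20 in Cx43 shRNA (adjusted p = 0.432). The part of these markers in the class I differences was not tested.

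Most members lie in the MHC region of chromosome 6, and other genes there were lower too in CDH2 shRNA. Of 91 other protein-coding genes on chromosome 6 within 1 megabase of a member there, 66 (72.5%) had a lower fitted value in CDH2 shRNA than in scramble, against 49% of all genes, and 16 fell (17.6%, beside 6.98% of all genes) while ZBTB12, a zinc finger gene, rose (0.43, adjusted p = 0.0286). The 16 included HLA-G, PSMB8 and PSMB9 but also genes outside presentation, such as the dimethylarginine hydrolase family gene DDAH2 (-0.62, adjusted p = 0.0199), the immediate early gene IER3 (-0.59, adjusted p = 0.0257), SMIM29 (-0.60, adjusted p = 0.0345), GPSM3 (-0.61, adjusted p = 0.0451) and the Polycomb-associated PHF1 (-0.53, adjusted p = 0.0209). Also among them were RNF5, ABHD16A, C6orf47, NEU1, SLC39A7, RING1 and ZBTB22, between -0.30 and -0.43. In Cx43 shRNA 52.7% of the 91 were lower, against 42.4% of all genes, and none passed. The median of the neighbours, -0.16 in CDH2 shRNA and -0.03 in Cx43 shRNA, was nearer 0 than that of the 9 members.

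Over the 8 libraries, 6 members followed each other closely. Pearson's r of a member with the mean of the other 8, each centred on its own mean, was 0.977 for HLA-C and B2M, 0.97 for HLA-F, 0.957 for HLA-E, 0.953 for HLA-B and 0.91 for TAP1. It was 0.827 for TAPBP, -0.398 for ERAP1 and -0.83 for TAP2. These values describe 3 groups of libraries that share their normalization, so they mostly restate the order of the groups. The genes outside the list whose values were most like the mean of the 9 were CAMLG (r = 0.9995), PRCP (0.9982), COMMD6 (0.9982), SEZ6L2 (0.9978), GSTM4 (0.9978), ABRACL (0.9955), LITAF (0.995), CHIC2 (0.9938), CETN2 (0.9935) and PIK3CD (0.993). Such likeness is common here, since 663 of the other 12930 genes had an r over 0.9. Of the 10, SEZ6L2, a neuronal membrane protein, had the largest difference in CDH2 shRNA, -0.79 (adjusted p = 0.016), and LITAF, which acts in endosomal sorting, was at -0.23 (adjusted p = 0.0758). The 10 were picked for likeness over these same libraries, so lower values in CDH2 shRNA were built in and are no separate result.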

How the data were processed

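RNA of CSCs that were sorted from MDA-MB-231 and left overnight in culture was depleted of ribosomal RNA and sequenced in single-end reads in 8 libraries, grouped by their labels. Per the study's methods and the labels, the authors aligned reads with STAR (version 2.6.1 in the submitters' processing notes) to hg38, assigned them by expectation-maximization in Partek Flow, removed 1 low-quality library, normalized to CPM with 1 added on the log2 scale, removed a sequencing-run effect and dropped low genes. The deposited unit is therefore log2, and depth is unknown, so no counting error can be given.

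Files held 12939 genes, of which 18 were written as dates, and 1 line without a name was left out. limma 3.58.1 (R 4.3.3) was fitted to all libraries with group and replicate number as a block, two-sided. Pairing comes from the run correction: deviations from group means sum to within 0.0001 of 0 inside each replicate number, in every gene. On simulated data the fit was tested with known changes. The simulated noise was independent between libraries and did not copy the 2 directions of the real residuals, so that test cannot vouch for the p-values here. Positions and lengths came from GENCODE 44 (MANE transcripts), promoters from RefSeq. Named genes were all members, list genes with an adjusted p under 0.05 or the largest difference of their list in a knockdown, the 10 genes most like the members and neighbours that passed. The members and lists were chosen with earlier results of these data known. Some genes of the lists are counted but not reported here by name. Alternatives changed the block, scaling, filter, pseudocount, variance trend, libraries fitted and fold limit, or left out each library.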

Additional observations from a re-analysis of the deposited data

How the results depend on the processing

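Of 432 member differences recomputed under the alternatives (9 members, 3 comparisons, 16 alternatives), 425 kept their direction, and the 7 that did not were all ERAP1. Without single libraries its difference ranged from -0.0457 (without CDH2 shRNA replicate 2) to 0.4098 in CDH2 shRNA against scramble, where it was -0.0414 without scramble replicate 2, from -0.2605 to 0.1141 in Cx43 shRNA against scramble, and from -0.0844 to 0.2957 in CDH2 shRNA against Cx43 shRNA. With the compared groups alone it was 0.1141 in Cx43 shRNA against scramble. The median of the members stayed within -0.4906 to -0.4342, -0.3189 to -0.1823 and -0.2096 to -0.1499 when single libraries were left out.

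The counts of genes past threshold depended on the settings more than the values did. CDH2 shRNA against scramble had 267, and 150 among the 75% of genes with the highest means, 0 with the compared groups alone, 1846 with no fold limit and 0 to 723 without single libraries. Cx43 shRNA against scramble had 153, and 4 with that filter, 741 with the compared groups alone, 82 with the spread over 2 directions and 0 to 730 without single libraries. CDH2 shRNA against Cx43 shRNA had 0, 414 with the compared groups alone and 0 to 545 without single libraries. Without the replicate block, in the fit that counts 5 residual degrees of freedom, the counts were 331, 532 and 360. Members past threshold in CDH2 shRNA were 1, 2 after quantile normalization (HLA-C at -0.74 beside HLA-B), 0 with the compared groups alone, 5 with no fold limit and 0 to 2 without single libraries, and 1 without the replicate block. The cause of these shifts was not tested, and fewer libraries leave fewer degrees of freedom. Without replicate 3 of a group the other library of that number no longer bears on the spread.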
